A study of Mus musculus with 6 samples.

Results

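The D-type cyclins, the Cip/Kip and INK4 inhibitors of cyclin-dependent kinases, p53 and its ubiquitin ligase Mdm2 were followed across 3 kinds of mouse lung sample. The 10 genes, Ccnd1, Ccnd2, Ccnd3, Cdkn1a, Cdkn1b, Cdkn1c, Cdkn2a, Cdkn2b, Trp53 and Mdm2, were taken by name through the RefSeq transcript that each array probe was designed for. All of their probes were kept, 17 of the 56605 probes of the array, and the 10 genes were among 22911 that could be named in this way. Expression was measured on 6 one-colour Agilent arrays, 2 per group, all from male mice. The CD49e+ Sca1- Lin- gate took myofibroblasts, cells that contract and lay down matrix after injury, from lungs of mice that had received bleomycin, a drug that scars the lung. The CD140a+ Lin- gate took steady-state fibroblasts from untreated lungs, and homogenates were of whole untreated lung. The surface gate and the bleomycin treatment changed together, so they cannot be told apart in any comparison of the sorted groups. The sources used here do not give strain, age, bleomycin dose or time. Nor do the labels say whether both samples of a group are separate animals, so the p-values cover sample-to-sample spread that could be technical.

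Progress from G1 into S phase is driven by cyclin D bound to Cdk4 or Cdk6, which phosphorylates the retinoblastoma protein and frees E2F factors to switch on replication genes. INK4 proteins (p15Ink4b from Cdkn2b, p16Ink4a from Cdkn2a) bind Cdk4 and Cdk6 and keep cyclin D off them, while Cip/Kip proteins (p21 from Cdkn1a, p27 from Cdkn1b, p57 from Cdkn1c) bind complexes of cyclin and kinase. Cdkn2a also encodes p19Arf, from another first exon and another reading frame, which holds back Mdm2, and Mdm2 in turn marks p53 for degradation. p53 itself is governed largely at the level of protein stability, which transcript arrays do not measure, and Cdkn1a and Mdm2 are textbook p53 target genes. In fibrotic lung, p21 and p16 are widely used as markers of senescent cells.

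The stretches of promoter below are shown for the members called between the sorted groups for which RefSeq windows were at hand, so that the start regions of the inhibitors can be read beside their values. Each runs from 250 bases before to 50 bases after an annotated start in RefSeq's GRCm38.p6 table, 5′ to 3′ on the gene's strand, and 7 of the 10 genes had a window, 10 windows in all. Capitals mark matches, on either strand, to the GC box GGGCGG, the CCAAT box, the TATA box TATAAA, the half-site TGACG of the cyclic AMP response element, or the p53 half-site. The 2 Cdkn1a windows lie at chr17:29090729-29091028 and chr17:29093519-29093818 on the plus strand, and the Cdkn1b window at chr6:134920151-134920450 on the plus strand. The Cdkn2a windows lie at chr4:89282143-89282442 and chr4:89294570-89294869 and the Cdkn2b window at chr4:89310983-89311282, all 3 on the minus strand of the Ink4 locus.
Cdkn1a, window 1: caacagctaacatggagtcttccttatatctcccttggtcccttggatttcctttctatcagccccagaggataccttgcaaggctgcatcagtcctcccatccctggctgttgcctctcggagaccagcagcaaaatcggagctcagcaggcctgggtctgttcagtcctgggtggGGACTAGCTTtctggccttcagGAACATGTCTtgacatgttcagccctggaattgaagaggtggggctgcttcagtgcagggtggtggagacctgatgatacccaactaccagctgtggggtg
Cdkn1a, window 2: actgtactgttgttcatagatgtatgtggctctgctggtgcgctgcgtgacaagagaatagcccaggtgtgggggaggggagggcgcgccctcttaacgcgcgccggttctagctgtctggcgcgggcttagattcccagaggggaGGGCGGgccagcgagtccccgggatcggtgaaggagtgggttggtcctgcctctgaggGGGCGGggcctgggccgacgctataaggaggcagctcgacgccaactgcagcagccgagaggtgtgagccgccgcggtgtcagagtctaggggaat
Cdkn1b: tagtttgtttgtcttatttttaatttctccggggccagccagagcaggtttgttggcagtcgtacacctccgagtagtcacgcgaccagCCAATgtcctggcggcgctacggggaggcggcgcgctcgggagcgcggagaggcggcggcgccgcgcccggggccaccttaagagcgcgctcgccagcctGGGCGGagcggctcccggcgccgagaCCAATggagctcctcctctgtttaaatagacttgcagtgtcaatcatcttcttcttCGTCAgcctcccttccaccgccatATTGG
Cdkn2a, window 1: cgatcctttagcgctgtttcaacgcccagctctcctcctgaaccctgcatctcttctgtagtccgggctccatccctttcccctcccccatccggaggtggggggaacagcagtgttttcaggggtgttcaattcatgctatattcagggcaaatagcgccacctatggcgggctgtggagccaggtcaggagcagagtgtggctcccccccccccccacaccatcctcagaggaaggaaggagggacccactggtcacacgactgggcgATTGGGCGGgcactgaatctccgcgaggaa
Cdkn2a, window 2: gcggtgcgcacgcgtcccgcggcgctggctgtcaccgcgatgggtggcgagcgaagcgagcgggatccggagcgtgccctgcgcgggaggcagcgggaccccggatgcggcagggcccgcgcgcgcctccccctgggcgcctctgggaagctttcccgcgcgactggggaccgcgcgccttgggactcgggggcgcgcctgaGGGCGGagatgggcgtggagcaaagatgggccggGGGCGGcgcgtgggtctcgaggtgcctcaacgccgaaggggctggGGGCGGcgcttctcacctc
Cdkn2b: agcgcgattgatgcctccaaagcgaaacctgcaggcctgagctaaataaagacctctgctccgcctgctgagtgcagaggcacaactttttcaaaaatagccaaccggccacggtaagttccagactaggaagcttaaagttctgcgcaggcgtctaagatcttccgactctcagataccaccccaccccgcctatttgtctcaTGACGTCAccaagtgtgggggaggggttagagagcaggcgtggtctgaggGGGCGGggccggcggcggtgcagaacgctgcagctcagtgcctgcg
The first Cdkn1a window held 2 p53 half-sites, at 73 and 51 bases before the start, and no GC box. The second held 2 GC boxes and no p53 half-site. The Trp53 and Mdm2 windows, not printed, held 1 p53 half-site each. A p53 half-site was present in 8.36% of all 32851 promoter windows of this length, so a match alone does not show whether p53 binds there. The second Cdkn2a window held 3 GC boxes and was 77.0% G and C, against a median of 52.7% over all windows, and a GC box was present in 35.7% of them. In the first Cdkn2a window the GC box and a CCAAT box overlapped. The Cdkn2b window held a palindrome of 2 overlapping TGACG half-sites, a match that 20.8% of all windows had at least once, and the Cdkn1b window held 3 CCAAT boxes, a match found in 37.4%. None of these windows held the E2F core, which was searched as GGCGGGAA, GCGCGAAA or GGCGCGAA and was present in 2.87% of all windows, and only the Trp53 window among the 10 held a TATA box, present in 13.6%. Which of 2 windows of a gene feeds the transcript that a probe reads is not given in the table.

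Values are relative signals: the background-corrected signal of a probe divided by the 75th percentile of its array, which was between 224 and 282 units on the 6 arrays. A relative signal can be compared between arrays for 1 probe and not between probes. Differences are on the log2 scale with limma's standard error, the Benjamini-Hochberg adjustment of p-values ran over all probes tested in a comparison, and a probe was called at an adjusted p under 0.05. Of the 17 probes, 16 were tested in each comparison. The exception was the second Cdkn2a probe, which was not well above background on any of the 6 arrays. The 3 comparisons share their arrays and are not independent of each other. The groups were fitted together and share 1 estimate of spread per probe. An array of the group outside a comparison enters only through that estimate, so leaving it out changes the p-value and not the difference. A group with 1 array left adds nothing to the estimate.

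The sorted groups carried the marks of their gates. Itga5, which encodes CD49e, read 3.74 and 5.01 in myofibroblasts, against 0.316 and 0.228 in fibroblasts. Pdgfra, which encodes CD140a, read 9.66 and 10.2 in myofibroblasts, against 73.5 and 35.1 in fibroblasts. Ly6a, the gene of Sca-1, read 3.69 and 4.28 in myofibroblasts, against 12 and 19.2 in fibroblasts, so all 3 genes differed between the groups in the direction of the sort. The 6 myofibroblast and smooth muscle markers summed to 278 to 332 in myofibroblasts, against 19.4 to 30.9 in fibroblasts. The 6 endothelial markers summed to 0.245 to 0.276 in myofibroblasts, 1.40 to 1.71 in fibroblasts and 67.5 to 69.5 in homogenates. Ptprc, the pan-leukocyte gene, was well above background on neither fibroblast array and not on both myofibroblast arrays. Of the leukocyte markers, Lyz2 and Cd79a were also above it on neither fibroblast array, and only Adgre1 on neither myofibroblast array. The 7 epithelial markers summed to 11.6 to 17.6 in myofibroblasts and 71.9 to 121 in fibroblasts, against 827 to 838 in homogenates. Most of the sum in fibroblasts was the club cell gene Scgb1a1, at 118 and 69.0, and its part in the results below was not tested. The 8 leukocyte markers summed to 157 to 165 in myofibroblasts, 152 to 175 in fibroblasts and 258 to 269 in homogenates. Most of this in the sorted groups was 1 probe, of Itgam, which read between 136 and 173 on every array. Of these markers, 5 were well above background on both myofibroblast arrays and 4 on both fibroblast arrays, against 8 in homogenates. Of the 5 tested between the sorted groups, 1 was called higher in myofibroblasts and none lower. The 2 fibroblast arrays stood further apart than those of the other groups: 22.7% of 30582 probes differed over 2-fold between them, against 8.56% between the myofibroblast arrays and 2.21% between the homogenate arrays.

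Between myofibroblasts and steady-state fibroblasts, Ccnd1, Ccnd2, Cdkn1a, Cdkn2a and Cdkn2b were higher in myofibroblasts, Cdkn1b and Cdkn1c were lower, and Ccnd3, Trp53 and Mdm2 were not called by their brightest probe. These are 5 members higher, 2 lower and 3 not called of 10, where 9.1% of 16005 genes tested in the same way were called higher and 7.9% lower. The members' median log2 difference was 1.64, against -0.06 over all genes. Across all probes of the members, 9 were called higher and 2 lower of 16, where 17.5% of 37111 probes were called in either direction. The count of called members was 4 without myofibroblast replicate 2 and between 5 and 8 without any one of the others. By their brightest probes, Ccnd1, Cdkn1c, Cdkn2a and Cdkn2b were called without each array in turn.

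**Figure D1:**
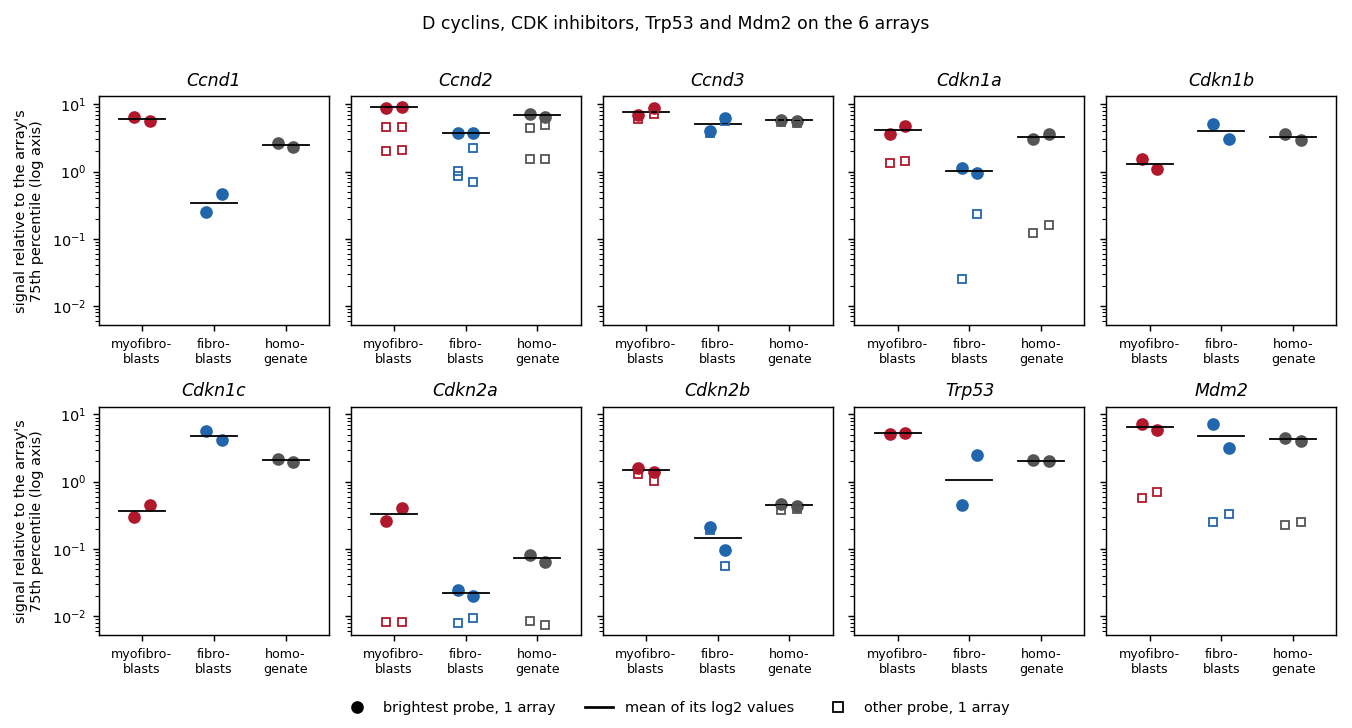
Relative signal (log axis) of the 10 genes on each of the 6 arrays, with myofibroblasts, fibroblasts and homogenates side by side; filled circles are the brightest probe of a gene on 1 array, bars the mean of its log2 values, and open squares the other probes. Ccnd1, Cdkn1a, Cdkn2a and Cdkn2b sit higher in myofibroblasts than in fibroblasts, Cdkn1b and Cdkn1c sit lower, and the 2 fibroblast arrays are widely spread for Trp53.

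Ccnd1, the D cyclin that growth factors induce, was higher in myofibroblasts than in fibroblasts. Its single probe read 6.49 and 5.59 in myofibroblasts, 0.250 and 0.458 in fibroblasts, and 2.69 and 2.34 in homogenates. The 3 groups did not overlap, with homogenates in between. The log2 difference of myofibroblasts minus fibroblasts was 4.15 ± 0.36 (SE, n = 2 arrays each), a 17.8-fold higher signal (limma, adjusted p = 0.00429), and with normexp it was 3.34. Fibroblasts were lower than homogenates by 7.41-fold (log2 difference -2.89 ± 0.36, adjusted p = 0.00644), although that call was lost when either homogenate array was left out, with an adjusted p of up to 0.0599. Myofibroblasts read above homogenates on both arrays, but their log2 difference of 1.26 ± 0.36 was not called (adjusted p = 0.0603). The main test thus did not separate the upper groups. The difference was called in 7 of 18 alternatives, among them normexp, median scaling and only the 4 arrays of the 2 groups.

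Ccnd2, the second D cyclin, was measured by 3 probes. The brightest read 8.74 and 9.19 in myofibroblasts, 3.69 and 3.76 in fibroblasts, and 7.23 and 6.57 in homogenates. Fibroblasts were lowest and their arrays nearly equal on this probe. Myofibroblasts were 2.40-fold higher than fibroblasts (log2 difference 1.27 ± 0.23, adjusted p = 0.0241). The dimmest probe, at 2.05 and 2.12 in myofibroblasts and 1.03 and 0.697 in fibroblasts, gave nearly the same log2 difference of 1.30 ± 0.28 (adjusted p = 0.0366). The third probe pointed the same way without being called (1.73 ± 0.48, adjusted p = 0.0615), since its fibroblast arrays, at 0.868 and 2.25, differed 2.59-fold from each other. The call for the brightest probe was lost without either myofibroblast array or either homogenate array, with an adjusted p of up to 0.103, and the call for the dimmest one was lost without the same arrays. Neither of the other comparisons called a Ccnd2 probe, and the brightest probe differed from homogenates by 0.38 ± 0.23 in myofibroblasts and -0.89 ± 0.23 in fibroblasts on the log2 scale (adjusted p = 0.280 and 0.0657).

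Ccnd3, the D cyclin best known from lymphocytes, showed the smallest difference between the sorted groups of the 3. Its brighter probe read 6.93 and 8.77 in myofibroblasts, 4.01 and 6.27 in fibroblasts, and 5.88 and 5.62 in homogenates. The sorted groups did not overlap, but homogenates lay inside the range of the fibroblast arrays. Neither of its 2 probes was called in any comparison; between the sorted groups the log2 differences were 0.64 ± 0.32 and 0.53 ± 0.30 (adjusted p = 0.201 and 0.252).

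Among the Cip/Kip inhibitors, Cdkn1a on one side and Cdkn1b and Cdkn1c on the other moved in opposite directions between the sorted groups. For Cdkn1a, which encodes p21, the brighter probe read 3.58 and 4.82 in myofibroblasts, 1.12 and 0.953 in fibroblasts, and 3.02 and 3.59 in homogenates. Fibroblasts were lowest, and myofibroblasts and homogenates overlapped. Myofibroblasts were 4.02-fold higher than fibroblasts (log2 difference 2.01 ± 0.28, adjusted p = 0.0127), a call lost without myofibroblast replicate 2 (adjusted p = 0.0625). Fibroblasts were 3.19-fold lower than homogenates (-1.67 ± 0.28, adjusted p = 0.0172), a call lost without either homogenate array (adjusted p up to 0.145), and myofibroblasts did not differ from homogenates by this test (0.33 ± 0.28, adjusted p = 0.418).

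The second Cdkn1a probe, designed for another transcript of the gene, had a different profile. It read 1.32 and 1.44 in myofibroblasts, 0.0251 and 0.230 in fibroblasts, and 0.120 and 0.159 in homogenates. Here homogenates were near fibroblasts rather than near myofibroblasts, while the first probe placed them near myofibroblasts. Only 1 of the 2 fibroblast arrays was well above background for it. With a floor at the lowest such signal on fibroblast replicate 1, myofibroblasts were 14.5-fold higher than fibroblasts (adjusted p = 0.0448 for the fitted difference). That size holds for this processing only, and the call was lost without either myofibroblast or either homogenate array. The fitted log2 difference was 2.59 without fibroblast replicate 1 and 5.78 without fibroblast replicate 2, and 2.19 with normexp. Against homogenates, the log2 difference of myofibroblasts was 3.32 ± 1.0 on this probe and was not called (adjusted p = 0.0691). It was called in 8 of 17 alternatives, among them normexp, quantile normalization and only the 4 arrays of the 2 groups. Whether the 2 probes differ in their difference was not tested, and the position of each probe in the gene is not given in the files.

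Cdkn1b, the gene of p27, which is typical of resting cells, read 1.55 and 1.11 in myofibroblasts, 5.13 and 3.08 in fibroblasts, and 3.59 and 2.92 in homogenates. Myofibroblasts were lowest, and fibroblasts and homogenates overlapped. The signal was 3.03-fold lower in myofibroblasts than in fibroblasts (log2 difference -1.60 ± 0.36, adjusted p = 0.0395). This call held without fibroblast replicate 2 and was lost without any other single array, with an adjusted p of up to 0.162. Against homogenates the log2 difference of myofibroblasts was -1.30 ± 0.36 and was not called (adjusted p = 0.0571). It was called in 10 of 18 alternatives, among them normexp, quantile normalization and only the 4 arrays of the 2 groups.

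Cdkn1c, the imprinted gene of p57 that is expressed from the maternal allele, was the member with the largest drop. Its probe read 0.298 and 0.443 in myofibroblasts, 5.66 and 4.10 in fibroblasts, and 2.19 and 1.98 in homogenates. The 3 groups did not overlap, and their order was the reverse of that of Ccnd1. Myofibroblasts were 13.3-fold lower than fibroblasts (log2 difference -3.73 ± 0.32, adjusted p = 0.00429) and 5.75-fold lower than homogenates (-2.52 ± 0.32, adjusted p = 0.00592). With normexp the log2 difference from fibroblasts was -3.01. The first call held without each array in turn, and the second was lost without either homogenate array (adjusted p up to 0.0571). Fibroblasts stood above homogenates by a log2 difference of 1.21 ± 0.32, which was not called (adjusted p = 0.0685).

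Both genes of the Ink4 locus were higher in myofibroblasts. The readable Cdkn2a probe gave 0.263 and 0.413 in myofibroblasts, 0.0248 and 0.0202 in fibroblasts, and 0.0816 and 0.0636 in homogenates. Myofibroblast and homogenate arrays were all well above background and neither fibroblast array was, so only a bound can be given against fibroblasts. Myofibroblasts were at least 7.68-fold higher than fibroblasts, taking the higher of the probe's own signal and the lowest signal well above background on each fibroblast array (adjusted p = 0.00426). Against homogenates they were 4.57-fold higher (log2 difference 2.19 ± 0.33, adjusted p = 0.0101), a call lost without either homogenate array (adjusted p up to 0.0883). Fibroblasts were at least 1.68-fold lower than homogenates (adjusted p = 0.0282), and this call held in 7 of 17 alternatives. These sizes hold for this processing only. The normexp alternative added 50 units to each corrected signal, which by itself shrinks log2 differences of dim probes such as this one. With normexp background correction the fitted log2 difference of Cdkn2a was 1.07 between the sorted groups (adjusted p = 0.0114), 1.03 for myofibroblasts against homogenates (adjusted p = 0.00773) and -0.038 for fibroblasts against homogenates, which was not called (adjusted p = 0.886). Both Cdkn2a probes were designed for the same RefSeq transcript, and their positions in it are not given in the files. The higher signal therefore cannot be assigned to the p16Ink4a message, the p19Arf message or both.

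Cdkn2b, the gene of p15Ink4b, was read by 2 probes that gave like values. The brighter one read 1.62 and 1.41 in myofibroblasts, 0.215 and 0.0963 in fibroblasts, and 0.465 and 0.439 in homogenates. The groups did not overlap, in the same order as for Ccnd1. Myofibroblasts were 10.5-fold higher than fibroblasts (log2 difference 3.40 ± 0.42, adjusted p = 0.00955), and the other probe gave 3.46 ± 0.59 (adjusted p = 0.0206), or 2.57 without fibroblast replicate 2 and 4.35 without fibroblast replicate 1. With normexp they were at 2.13 and 1.96, both called. The brighter probe was called without each array in turn. The call of the other probe was lost without either myofibroblast or either homogenate array, and with only the 4 arrays of the 2 groups. Against homogenates myofibroblasts were 3.35-fold higher on the brighter probe (1.74 ± 0.42, adjusted p = 0.0399). That call was lost without either myofibroblast or either homogenate array and was not made by the other probe (1.57 ± 0.60, adjusted p = 0.115). Fibroblasts read lower than homogenates on both arrays, with a log2 difference of -1.65 ± 0.42 that was not called (adjusted p = 0.0608). The 2 Ink4 genes are related in sequence and the probe sequences were not at hand, so cross-hybridisation between them was not tested.

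The p53 transcript itself could not be separated between the sorted groups at this spread. The single Trp53 probe read 5.14 and 5.30 in myofibroblasts, 0.451 and 2.51 in fibroblasts, and 2.07 and 2.01 in homogenates. Myofibroblasts and homogenates were each tight, while the fibroblast arrays differed 5.57-fold and spanned the homogenates. Both myofibroblast arrays lay above both fibroblast arrays, and the log2 difference of 2.29 ± 0.78 was not called (adjusted p = 0.0962). Leaving out fibroblast replicate 2 raised it to 3.53 with a call (adjusted p = 0.00697), and leaving out fibroblast replicate 1 gave 1.05 with none (adjusted p = 0.0504). Against homogenates the log2 differences were 1.36 ± 0.79 for myofibroblasts and -0.94 ± 0.79 for fibroblasts (adjusted p = 0.254 and 0.502). The standard error for myofibroblasts includes the spread of the fibroblast arrays, through the shared fit. Their difference from homogenates was called in 3 of 18 alternatives, among them only the 4 arrays of the 2 groups, where no fibroblast array entered.

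Mdm2, the ligase that limits p53, was read by 2 probes that gave different calls. The brighter one read 7.10 and 5.88 in myofibroblasts, 7.15 and 3.19 in fibroblasts, and 4.50 and 4.05 in homogenates, so the sorted groups overlapped. Its log2 difference between the sorted groups was 0.43 ± 0.43 (adjusted p = 0.489). The dimmer probe read 0.572 and 0.707 in myofibroblasts, 0.253 and 0.327 in fibroblasts, and 0.226 and 0.250 in homogenates, with myofibroblasts above all other arrays. On it, myofibroblasts were 2.21-fold higher than fibroblasts (1.15 ± 0.27, adjusted p = 0.0443) and 2.67-fold higher than homogenates (1.42 ± 0.28, adjusted p = 0.0212). The first of these calls held in 7 of 17 alternatives and was lost without any single array other than fibroblast replicate 2 (adjusted p up to 0.175). The second was lost without either myofibroblast or either homogenate array (adjusted p up to 0.151). Both probes were designed for the same RefSeq transcript, and the difference between them was not tested.

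**Figure D2:**
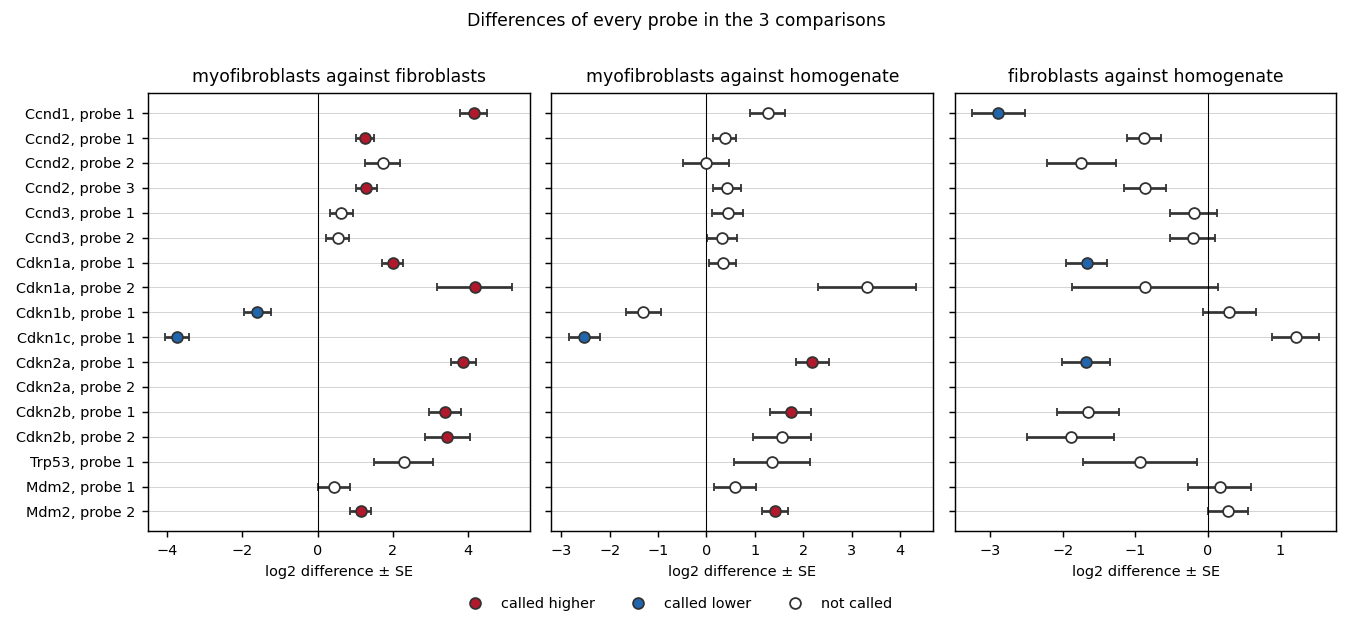
Log2 difference (points) with limma's standard error (bars) for every tested probe of the 10 genes in the 3 comparisons; red points were called higher, blue points called lower and open points not called. Ccnd1, at 4.15, and Cdkn1c, at -3.73, have the outermost fitted points among brightest probes in myofibroblasts against fibroblasts, and no probe was called higher in fibroblasts against homogenate.

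Set against lung homogenate, fewer members were called. In myofibroblasts Cdkn2a and Cdkn2b were higher, Cdkn1c was lower and 7 members were not called, where 10.6% of 17162 genes were called higher and 13.9% lower. The members' median log2 difference was 0.52, against -0.01 over all genes, and 3 probes were called higher and 1 lower, where 22.4% of 39777 probes were called. Without either homogenate array no member was called, and without either fibroblast array 6 were, so the count depended on the arrays in the fit. In fibroblasts no member was higher, Ccnd1, Cdkn1a and Cdkn2a were lower and 7 were not called, where 6.77% of 17062 genes were called higher and 10.8% lower. The members' median log2 difference was -0.91, against 0.03 over all genes, and 3 probes were called lower, where 14.7% of 39638 probes were called in either direction. This count too was 0 without either homogenate array. Homogenate is a mixture of cell types, so fewer cells of a type and less RNA per cell cannot be told apart, and its arrays lay in another row of the slide than the sorted ones, which cannot be told apart from the homogenate itself.

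**Figure D3:**
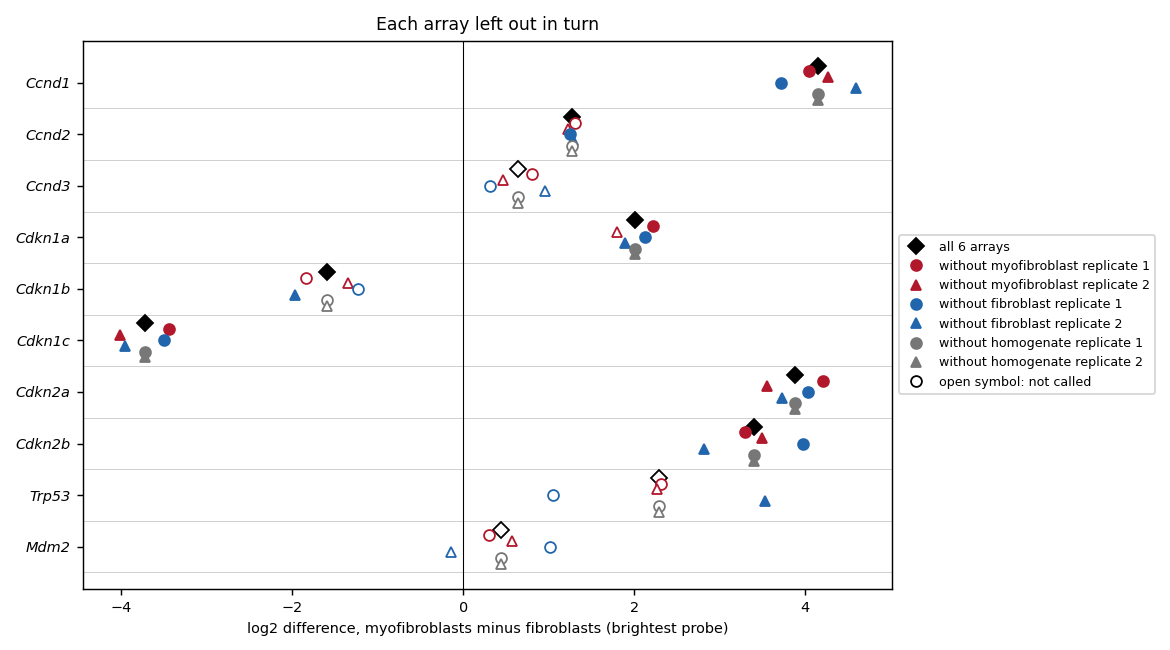
Log2 difference of myofibroblasts minus fibroblasts for the brightest probe of each gene, with all 6 arrays (diamond) and with each array left out in turn (circles and triangles); open symbols were not called. Ccnd1, Cdkn1c, Cdkn2a and Cdkn2b stayed called throughout, Trp53 was called at 3.53 without fibroblast replicate 2, and Mdm2 crossed 0 without that array, at -0.15.

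The partners of the members in the cell cycle were counted in lists of genes, again by the brightest probe and between myofibroblasts and fibroblasts. Over all genes tested in this way, 9.1% were called higher and 7.9% lower. In this and later lists, a fold given as at least rests on the lowest signal well above background and holds for this processing only. Of the 5 cyclins E, A and B, 4 were higher and none lower, with a median log2 difference of 2.79, or 1.66 with normexp. Ccna2, the S and G2 phase cyclin, read 4.42 and 3.59 in myofibroblasts, against 0.133 and 0.104 in fibroblasts (log2 difference 5.08 ± 0.33, adjusted p = 0.00268). Ccnb1, a mitotic cyclin, was at least 23.5-fold higher (adjusted p = 0.00217), being not well above background in fibroblasts, and Ccnb2 had a log2 difference of 2.58 ± 0.31 (adjusted p = 0.00891), a call lost without myofibroblast replicate 2. The fourth, Ccne1, differed by 1.11 ± 0.24 (adjusted p = 0.0337). The count was 2 without myofibroblast replicate 2 and between 3 and 5 without any other single array.

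Of 10 cyclin-dependent kinases and Cdc25 phosphatases, 4 were higher, none was lower and 6 were not called. Cdc25c, the phosphatase that activates Cdk1 at mitosis, was at least 14.2-fold higher in myofibroblasts (adjusted p = 0.00162) and was called without each array in turn. Only 1 of the 2 fibroblast arrays was well above background for Cdk1. With a floor at the lowest such signal on the other array, Cdk1 was 7.32-fold higher in myofibroblasts (adjusted p = 0.0326 for the fitted difference). Its fitted log2 difference ranged from 2.44 to 4.51 with each array left out in turn. Cdk6 and Cdk4 had log2 differences of 2.83 ± 0.66 and 1.40 ± 0.24 (adjusted p = 0.0423 and 0.0214), and that of Cdk6 ranged from 1.88 to 3.78 without single arrays. The ends of both ranges came from leaving out a fibroblast array. Cdk4, a direct partner of the D cyclins, read 7.32 and 8.57 in myofibroblasts, against 2.85 and 3.15 in fibroblasts. The count for this list was 1 without either myofibroblast or either homogenate array, and 7 without fibroblast replicate 2. The other INK4 inhibitors, Cdkn2c and Cdkn2d, were not called between the sorted groups (log2 differences 0.78 ± 0.24 and 0.98 ± 0.36, adjusted p = 0.0778 and 0.111). Against homogenates both were higher in myofibroblasts, by 1.74 ± 0.24 and 1.51 ± 0.36 (adjusted p = 0.00760 and 0.0385), and neither was called without either homogenate array.

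Downstream of cyclin D, 5 of 15 pocket proteins and E2F factors were higher, 1 was lower and 9 were not called. E2f8 and E2f2 were at least 9.42-fold and at least 8.11-fold higher (adjusted p = 0.00659 and 0.00234), both being not well above background in fibroblasts. Tfdp1, which encodes a dimer partner of E2F, differed by 1.37 ± 0.28 (adjusted p = 0.0326), and E2f1 and E2f7 by 1.16 ± 0.27 and 1.02 ± 0.24 (adjusted p = 0.0437 and 0.0440). The one lower gene was Rbl2, a pocket protein of resting cells, at -1.36 ± 0.33 (adjusted p = 0.0450), a call lost without any single array other than fibroblast replicate 2. The count of higher genes in this list was 2 without either myofibroblast or either homogenate array. Of 12 proliferation markers 8 were higher, none was lower and 4 were not called, with a median log2 difference of 2.71, or 1.85 with normexp. Mki67, the gene of the Ki-67 antigen, read 5.96 and 5.31 in myofibroblasts, 0.241 and 0.186 in fibroblasts, and 1.54 and 1.35 in homogenates (4.73 ± 0.26 between the sorted groups, adjusted p = 0.00231). Top2a was at least 78.2-fold higher (adjusted p = 0.00364) and Gmnn, the inhibitor of replication licensing, differed by 3.14 ± 0.35 (adjusted p = 0.00728). The fitted log2 difference of Top2a was 6.65 to 8.45 and that of E2f8 4.16 to 5.44 with each array left out in turn. Between 7 and 10 of the 12 proliferation markers were then higher. The called genes of these lists and the inhibitors Cdkn1a, Cdkn2a and Cdkn2b were measured in the same 2 myofibroblast samples, and sorted RNA does not show whether they were higher in the same cells.

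The lists around p53 are read beside the 9.1% of all genes called higher and the 7.9% called lower. Of 12 p53 regulators and damage kinases, 1 was higher and 11 were not called, with a median log2 difference of -0.40. The one was Chek1, the replication checkpoint kinase, at 2.59 ± 0.32 (adjusted p = 0.00955), lost without myofibroblast replicate 2 (adjusted p = 0.0519). The p53 relatives Trp63 and Trp73 were not called (-0.13 ± 0.24 and -0.70 ± 0.31, adjusted p = 0.712 and 0.163). Of 26 p53 target genes other than Cdkn1a and Mdm2, 7 were higher, 2 lower and 17 not called, with a median log2 difference of 0.77. Plk2 read 22.3 and 21.8 in myofibroblasts, against 2.89 and 2.62 in fibroblasts (3.0 ± 0.23, adjusted p = 0.00340). Bbc3, which encodes the death-promoting protein Puma, differed by 2.08 ± 0.24 (adjusted p = 0.00841), and Tnfrsf10b, a death receptor, by 2.32 ± 0.32 (adjusted p = 0.0125), lost without either myofibroblast array. Sesn1 and Btg2, also on this list, were lower, by log2 differences of -1.37 ± 0.34 and -1.60 ± 0.32 (adjusted p = 0.0498 and 0.0289). The count of higher targets was 2 without myofibroblast replicate 2, 3 without the other myofibroblast or either homogenate array, and 9 or 10 without 1 fibroblast array, and no target was lower without any of the myofibroblast or homogenate arrays.

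**Figure D4:**
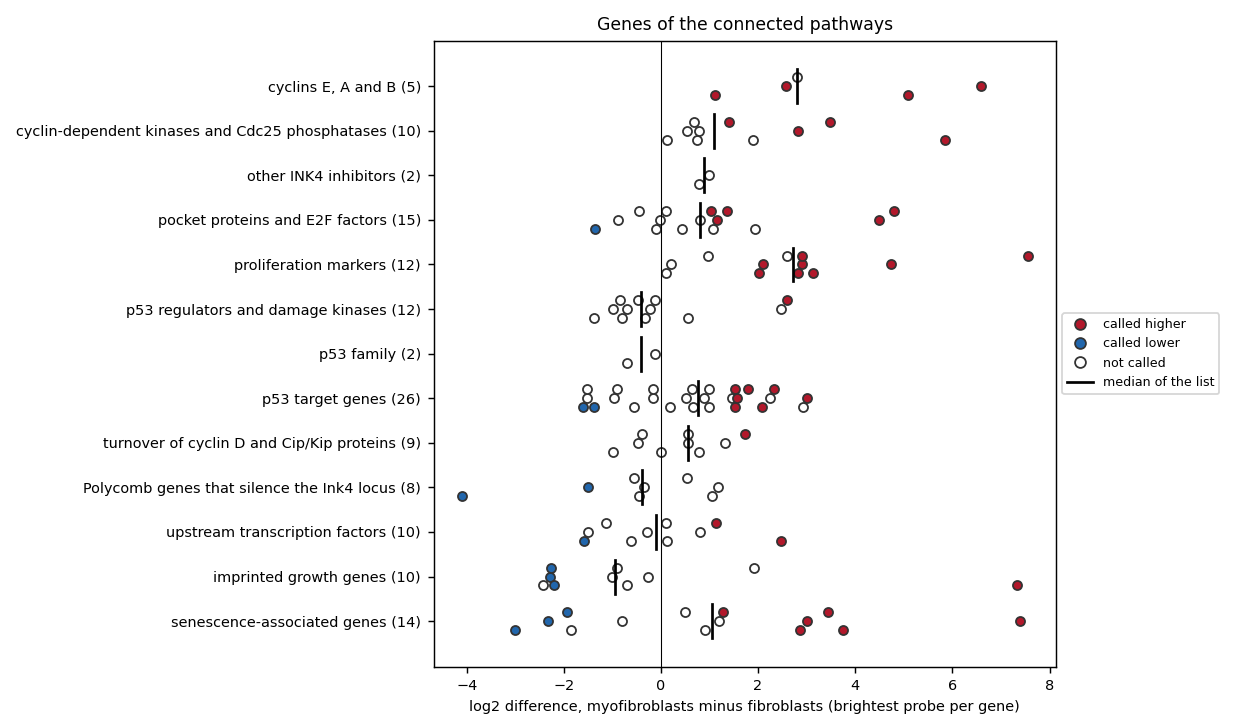
Log2 difference of myofibroblasts minus fibroblasts for each tested gene of 13 lists around the members (1 point per gene, number tested in brackets), red for called higher, blue for called lower and open for not called; black bars are list medians. Cyclins E, A and B and the proliferation markers have medians of 2.79 and 2.71, and the p53 regulators of -0.40.

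Regulators of the members were counted in the same way, in 3 lists. These counts too are read beside the 9.1% of all genes called higher and the 7.9% called lower. Of 9 genes for the turnover of cyclin D and Cip/Kip proteins, 1 was higher, Cks1b, a cofactor of the ligase that degrades p27 (1.73 ± 0.34, adjusted p = 0.0285). That call was lost without either myofibroblast or either homogenate array. Of 10 genes listed around Polycomb and the Ink4 locus, 8 were tested: 2 were lower and 6 were not called. Cbx7 read 0.283 and 0.116 in myofibroblasts, against 5.37 and 1.80 in fibroblasts (-4.10 ± 0.65, adjusted p = 0.0175, lost without myofibroblast replicate 2, with values of -4.89 to -3.31 without single arrays), and Ezh1 differed by -1.51 ± 0.24 (adjusted p = 0.0166, lost without either myofibroblast or either homogenate array). Of 10 upstream transcription factors, Zbtb17, which encodes the Myc partner Miz1, and Myc were higher (2.48 ± 0.31 and 1.13 ± 0.25, adjusted p = 0.00955 and 0.0385), and Foxo1 was lower (-1.58 ± 0.24, adjusted p = 0.0155). The calls of Myc and Foxo1 were lost without either myofibroblast or either homogenate array, that of Myc also without fibroblast replicate 1, and that of Zbtb17 held without each array.

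Cdkn1c is one of the imprinted growth genes, and the other 11 on that list did not share a direction. Of the 10 tested, 1 was higher, 3 were lower and 6 were not called, with a median log2 difference of -0.96. The shares over all genes, here and for the next list, were 9.1% higher and 7.9% lower. H19, a maternally expressed noncoding RNA, was at least 50.2-fold higher in myofibroblasts (adjusted p = 0.00162), at 2.09 and 2.21 there, and it was not well above background in fibroblasts. Meg3, Dlk1 and Peg3 were lower, by -2.28 ± 0.45, -2.26 ± 0.44 and -2.20 ± 0.37 on the log2 scale (adjusted p = 0.0293, 0.0284 and 0.0194). The 3 calls were lost without either myofibroblast array, those of Meg3 and Dlk1 also without fibroblast replicate 1, and that of Meg3 also without either homogenate array. Among 14 senescence-associated genes other than the members, 6 were higher, 3 lower and 5 not called. Tnfrsf11b, which encodes osteoprotegerin, was at least 44.2-fold higher (adjusted p = 0.00162). Plaur, the urokinase receptor gene, read 1.78 and 1.85 in myofibroblasts, against 0.128 and 0.219 in fibroblasts (3.44 ± 0.33, adjusted p = 0.00531). Mmp3, Igfbp3 and Igfbp5 were lower, by -3.0 ± 0.30, -1.93 ± 0.31 and -2.33 ± 0.51 (adjusted p = 0.0060, 0.0178 and 0.0361), of which 1 call was left without any one myofibroblast or homogenate array. In these lists Ccne1, Cdk4, Cdkn2c, Cdkn2d, E2f1, E2f7, Rbl2, Trp63, Trp73, Sesn1, Btg2, Peg3, Mmp3, Igfbp3 and Igfbp5 were named after their values were seen, to complete the short counts.

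The profiles of the members over the 6 arrays were set beside those of 13998 genes that were, like them, well above background on all 6. These correlations are descriptions over 6 arrays in 3 groups, and every gene that follows the groups will score high. The closest genes were Efcab12 and Tm4sf1 for Ccnd1, Slc7a2 and Itpripl2 for Ccnd2, and Rprd1b and Sdhc for Ccnd3, with Pearson's r between 0.9958 and 0.9974. For the inhibitors they were Ninj1 and Acot7 for Cdkn1a, Ido2 and Nctc1 for Cdkn1b, Selenbp1 and Zfp870 for Cdkn1c, and Ass1 and Hmgb3 for Cdkn2b, with r between 0.9923 and 0.999. Trp53 had 396 genes with r over 0.95, led by Usp22 and Rplp1, and Mdm2 had 53, led by Nhej1 and Tnip1. Cdkn2a, not above background in fibroblasts, was left out. Among the members themselves, Ccnd1 and Ccnd2 had the highest r, 0.9883, and Cdkn1c and Cdkn2b the most negative, r = -0.9293.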

How the data were processed

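The 6 Agilent arrays carried 1 dye, Cy3, and fell into 3 groups of mouse lung samples, 2 in each as the labels give them. The scanner files deposited by the authors hold the intensity of each spot, as written by Agilent Feature Extraction 12.0.3.1, per the file headers, whose processed signal had background and spatial trends removed. The authors' deposited normalized table holds the same intensity values times 1 constant per array, found by setting it against the scanner files, and was used as an alternative. RNA input was 5.8 ng per sample, per the labels' protocols, and a set was 50000 cells. Between 65.5% and 73.4% of spots were well above background, and no spot was saturated. The number of arrays limits the precision.

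From these files, the processed signal was divided by its 75th percentile on the same array and put on the log2 scale, outlier spots were dropped and spots of a probe averaged. Probes were named through RefSeq transcripts: 32994 matched 1 gene and 23611 matched none. A probe entered a comparison if either group had it well above background on both of its arrays. The test was limma's moderated one (version 3.58.1, R 4.3.3, two-sided), with the 3 groups in 1 fit of all 6 arrays, and p-values were adjusted over all tested probes of a comparison. A gene was counted by its brightest probe, the one with the highest mean over the 6 arrays. Fits were tested on simulated data in which all groups had the same spread. That test does not cover the unequal spread of the real groups.

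The members, gene lists and tests were chosen with earlier results of these data known. From each list, the 3 called genes with the largest difference between the sorted groups were named, with Mki67, the sort markers, and for each member the 2 genes with the highest correlation. Of the genes so selected, 1 is not reported here. Alternatives were background correction by normexp, which used the median spot signal because the files hold no mean, other scalings, the authors' table, filters, a floor, 1 probe per gene, other variance settings, a replicate block, and leaving out each array. Normexp was run with an offset of 50 units added to each corrected signal, which shrinks log2 differences of dim probes. Applying the alternatives to the list counts was added after the data were seen. Slide and scan were the same for all arrays and could not serve as blocks.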

Additional observations from a re-analysis of the deposited data

How the results depend on the processing

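Between myofibroblasts and fibroblasts 7 members were called. Leaving out single arrays gave 4 to 8, and the other alternatives, which included any probe of a gene with 8, gave 5 to 8. By their brightest probes, Ccnd1, Cdkn1c, Cdkn2a and Cdkn2b were called under every alternative that gave a value. Against homogenate, myofibroblasts had 3 called members, but 5 with normexp, 6 with only the 4 arrays of the comparison, 5 with array weights, 5 with a trended and robust prior, and 0 to 6 without single arrays. Fibroblasts against homogenate had 3 called members, but 5 with 1 probe per gene and 0 to 4 without single arrays. With the arrays of the fibroblasts left out of the fit or weighted, the count for myofibroblasts against homogenate was higher. The cause was not tested.

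Over all probes, 6497 were called between myofibroblasts and fibroblasts. The count was 9820 in the authors' table, 3834 with no filter on dim probes, 2970 with 1 probe per gene (fewer features tested), 2260 with only the 4 arrays, 2463 with array weights, and 2260 to 12292 without single arrays. For myofibroblasts against homogenate 8922 were called, against 5392 with only probes above background on all arrays, 4673 with 1 probe per gene, 14557 with only the 4 arrays, 15924 with array weights, and 3139 to 14557 without single arrays. For fibroblasts against homogenate 5814 were called, against 2935 with the all-array filter, 3425 with 1 probe per gene, and 2288 to 10379 without single arrays. The share of called probes that were higher was 45.7%, 37.9% and 37.6% in the 3 comparisons. It was 59.4%, 63.9% and 49.8% with median scaling and 20.6%, 15.9% and 33.9% in the authors' table. With normexp it was 51.7% and 48.8% against homogenate for myofibroblasts and fibroblasts. The all-array filter gave 50.9% and 55.1% there. The median log2 difference of all probes was -0.11, -0.13 and -0.020 in the 3 comparisons, 0.052, 0.32 and 0.26 with median scaling, and -0.52, -0.63 and -0.11 in the authors' table, so differences of a member shift with it.

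No called difference of a member changed sign under any alternative. Differences that were not called did so in 20 cases. For myofibroblasts against homogenate, quantile normalization gave -0.029 for Ccnd2 probe 1 and -0.015 for Ccnd3 probe 2. The authors' table gave -0.12 and -0.066 for Ccnd2 probes 1 and 3, -0.060 and -0.18 for Ccnd3 probes 1 and 2, and -0.16 for Cdkn1a probe 1. Ccnd2 probe 2 was at 0.43 with median scaling and ranged between -0.11 and 0.081 without single arrays. For fibroblasts against homogenate, median scaling gave 0.083 and 0.068 for Ccnd3 probes 1 and 2, normexp gave 0.038 for Cdkn1a probe 2, and quantile normalization gave -0.022 for Mdm2 probe 1. Without single arrays the ranges there were -0.52 to 0.12 for Ccnd3 probe 1, -0.52 to 0.097 for Ccnd3 probe 2, -2.46 to 0.73 for Cdkn1a probe 2, -0.072 to 0.66 for Cdkn1b probe 1, -2.17 to 0.30 for Trp53 probe 1 and -0.42 to 0.74 for Mdm2 probe 1. Mdm2 probe 1 ranged from -0.15 to 1.02 between the sorted groups. The positive end of Ccnd3, Cdkn1a and Trp53 and the negative end of Cdkn1b and Mdm2 came without fibroblast replicate 1, and the -0.15 of Mdm2 without fibroblast replicate 2.

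The replicate numbers did not pair the samples: deviations of same-numbered arrays correlated at 0.06, -0.01 and 0.02 over 30582 probes. With the number as a replicate block, 7, 4 and 2 members and 5053, 7440 and 5199 probes were called in the 3 comparisons. Signal near background limits Cdkn2a and the second Cdkn1a probe in fibroblasts.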
